A study of Mus musculus with 4 samples.

Results

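The Src family kinases and 3 of their regulators were followed in 2 kinds of mouse B cell. The genes were set by name, as 6 kinases (Lyn, Blk, Fyn, Lck, Fgr and Yes1) and 3 regulators (Csk, Pag1 and Ptpn22), and all 9 were found among the 20599 gene symbols of the RNA-seq tables. RNA had been sequenced from peritoneal B1a cells and from splenic follicular B2 cells (referred to here as B1a and B2), with 2 libraries for each, all from untreated wild-type C57BL/6 mice. The labels give an age of 4 weeks for every library, whereas the methods of the study give an older age for the donors of B2 cells, so that cell type, tissue and possibly age cannot be told apart in any comparison below. The wild-type animals were described as littermates of mice in which Dnmt3a is deleted in B cells by Cre, and as C57BL/6J controls elsewhere, and whether they carried Cre or floxed alleles was not given in the sources used here. The methods name 2 control mice for each cell type and the labels do not say which library came from which animal, so the p-values measure the spread between libraries.

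Src family kinases are tyrosine kinases held at the inner face of the plasma membrane. In B cells they phosphorylate the signalling motifs of the antigen receptor once antigen binds, which recruits the kinase Syk, and Lyn also phosphorylates inhibitory receptors that bring in phosphatases. Each kinase is held closed when Csk phosphorylates a tyrosine near its C terminus, and phosphatases such as CD45 open it again. Pag1 is a membrane adaptor that can bring Csk to the membrane, and Ptpn22 is a phosphatase that binds Csk and removes the phosphate from the activating tyrosine of the kinases. B1a cells are a self-renewing, largely fetal-derived B cell population of the body cavities that makes natural antibody and responds weakly to stimulation of its antigen receptor.

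The stretches of coding sequence that carry these controls are shown for the 6 kinases, because they differ between the members compared below. The first 10 codons hold the membrane anchor, in which the glycine after the starting methionine takes a myristoyl group and cysteines close to it can take palmitoyl groups. Sequences were read from the GENCODE transcripts on GRCm38, 5′ to 3′ on the coding strand, each within 1 exon, and capitals mark cysteine codons.
Lyn, start of coding sequence (chr4:3738730-3738759): atgggaTGTattaaatcaaaaaggaaagac
Blk, start of coding sequence (chr14:63387797-63387826): atggggctgctgagcagcaagaggcaggtc
Fyn, start of coding sequence (chr10:39511750-39511779): atgggcTGTgtgcaaTGTaaggataaagaa
Lck, start of coding sequence (chr4:129558156-129558185): atgggcTGTgtcTGCagctcaaaccctgaa
Fgr, start of coding sequence (chr4:132986163-132986192): atgggcTGTgtgttcTGCaagaagttggag
Yes1, start of coding sequence (chr5:32640339-32640368): atgggcTGCattaaaagtaaagaaaacaaa
Blk was the kinase of the 6 with no cysteine codon in this stretch. Lyn and Yes1 held 1, at codon 3, and Fyn, Lck and Fgr held 2, at codon 3 and at codon 5 or 6.

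The last 14 codons before the stop hold the tyrosine that Csk phosphorylates, shown in capitals.
Lyn, end of coding sequence (chr4:3789900-3789941): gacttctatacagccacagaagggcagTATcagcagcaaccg
Blk, end of coding sequence (chr14:63373395-63373436): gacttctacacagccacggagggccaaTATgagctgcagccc
Fyn, end of coding sequence (chr10:39563928-39563969): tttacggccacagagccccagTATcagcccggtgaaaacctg
Lck, end of coding sequence (chr4:129548801-129548842): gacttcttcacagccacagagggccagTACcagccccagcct
Fgr, end of coding sequence (chr4:133000299-133000340): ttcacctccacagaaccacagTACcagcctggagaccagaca
Yes1, end of coding sequence (chr5:32684715-32684756): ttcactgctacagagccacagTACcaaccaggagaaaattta
This codon stood 4 codons before the last in Lyn (codon 508 of 512), Blk (codon 495 of 499) and Lck (codon 505 of 509), and 6 codons before it in Fyn, Fgr and Yes1. The mRNA values that follow say nothing of how far these sites were modified.

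The libraries held 11032732 to 18588623 expected counts, which are the read counts that the quantifier assigned to each gene. The correlation of log CPM (counts scaled to library size and composition) was 0.836 between the B1a libraries, 0.966 between the B2 libraries and 0.788 to 0.858 between a B1a and a B2 library, so the B1a replicates were no more alike than some B1a and B2 pairs. Transcripts of the sorted surface proteins differed in the direction of the gates where they passed the test: Fcer2a (CD23) was at 60.9 to 63.7 CPM in B1a and 896 to 933 in B2, Cr2 (CD21) at 91.9 to 98.4 and 968 to 1045, and Spn (CD43) at 148 to 277 and 36.8 to 42.7. Itgam (CD11b), typical of B1 cells of the body cavities, was at 127 to 148 CPM in B1a and 1.88 to 6.41 in B2, whereas Cd93 was at 10.2 to 20.3 and 52.9 to 54.9 without passing the test. Cd5 was at 15.9 and 22.4 CPM in B1a and 5.46 and 2.25 in B2, without passing the test (adjusted p = 0.146, edgeR's quasi-likelihood test). The B cell markers Cd79a and Cd79b were above 889 CPM in all 4 libraries. Of 5 B cell markers, Cd79a and Ms4a1 passed the test as higher in B1a, and Pax5 and Ebf1 as higher in B2. Ms4a1 was at 1158 and 1078 CPM in B1a and at 615 and 732 in B2. Pax5 was at 267 and 265 CPM in B1a and at 500 and 492 in B2, and Ebf1 at 317 and 333 against 494 and 476.

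Of the 9 genes, 4 differed between B1a and B2 (edgeR's quasi-likelihood test, p adjusted by Benjamini-Hochberg over 12078 genes), against 5.74% of all genes tested. The 9 genes were chosen with earlier results of these data known, so this comparison is not a test of the set. Ptpn22 and Blk were higher in B1a, as 4.24% of all genes were, and Pag1 and Fyn were higher in B2, as 1.5% of all genes were. Lyn, Lck, Fgr, Yes1 and Csk did not pass the adjusted threshold of 0.05. The median log2 fold change (B1a minus B2) was 0.19 over the 9 genes and −0.03 over all genes tested. In CPM the B1a and B2 libraries did not overlap for any of the 9, which was also the case for 54.3% of all genes tested, so the absence of overlap sets none of them apart. In TPM, which divides the counts by transcript length and scales each library to the same total, 7 of the 9 did not overlap, against 59.3% of genes tested, and Lyn and Lck were those that did.

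**Figure D1:**
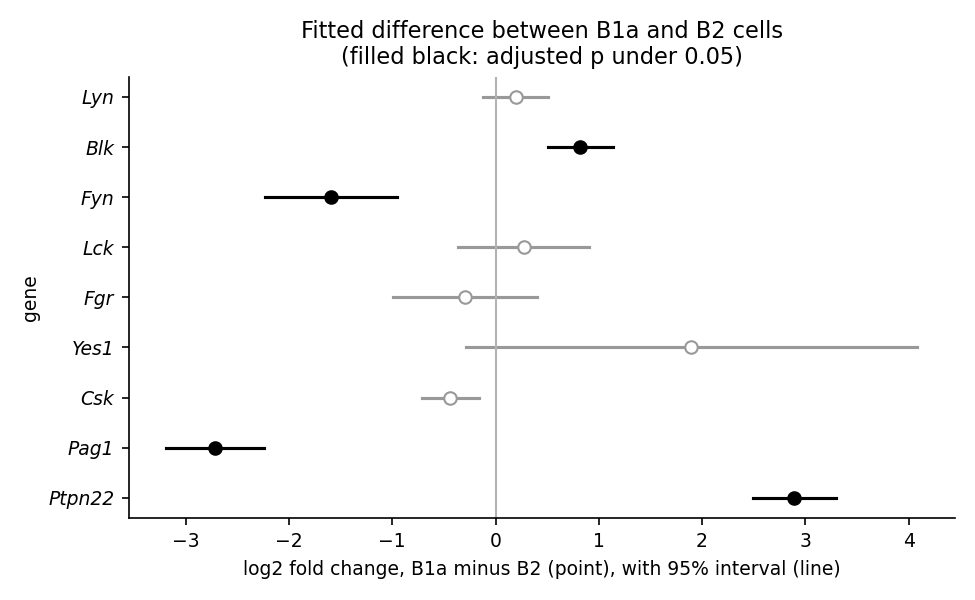
Fitted log2 fold change of each gene (x axis, B1a minus B2, with 95% intervals as lines) for 2 B1a and 2 B2 libraries, filled black where the adjusted p was under 0.05. Ptpn22 at 2.90 and Pag1 at −2.71 lie farthest from 0 in opposite directions, and the interval of Yes1 runs from −0.29 to 4.08.

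Compared per transcript length, the genes fell into abundant and sparse members, and the order differed between the cell types. In B1a cells the order by mean TPM was Blk (748), Lyn (467), Csk (412), Ptpn22 (346), Lck (56.2), Fgr (26.5), Fyn (15.5), Pag1 (15.3) and Yes1 (5.67). Each gene stood above the next in both B1a libraries except Fyn and Pag1, whose values overlapped. In B2 cells the order was Csk (659), Blk (501), Lyn (482), Pag1 (119), Lck (55.6), Ptpn22 (54.9), Fyn (54.8), Fgr (38.4) and Yes1 (1.60). There Blk and Lyn overlapped, as did Lck, Ptpn22 and Fyn. Ptpn22 thus stood among the abundant genes in B1a cells and among the sparse ones in B2 cells. Pag1 was among the sparse genes in B1a cells, and in B2 cells it lay between Lyn (482) and Lck (55.6), apart from both.

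**Figure D2:**
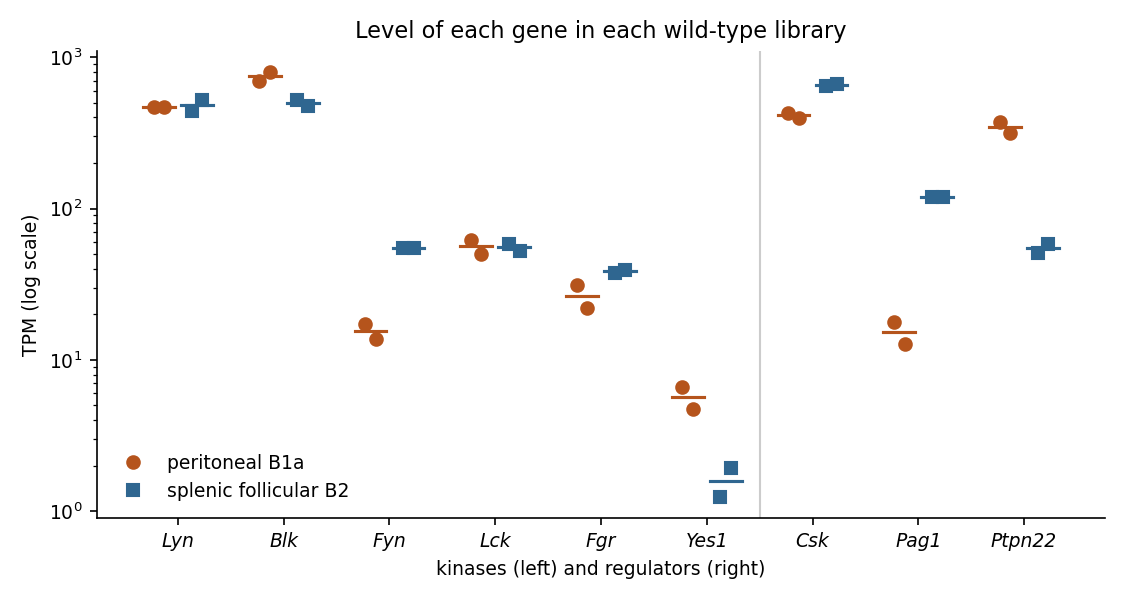
TPM of each gene in each library (log axis), with circles for the 2 B1a libraries, squares for the 2 B2 libraries and bars for their means. The points of Lyn and Lck overlap between the cell types. Those of Blk, Fyn, Yes1, Csk, Pag1 and Ptpn22 are separated by more than the spread between replicates, and those of Fgr by less than its spread in B1a.

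Lyn (chr4:3678068-3791612 on GRCm38, as all positions here, plus strand) encodes the kinase that acts on both the activating and the inhibitory side of the antigen receptor. It was at 466 and 467 TPM in B1a and at 443 and 521 TPM in B2, so the B1a values lay inside the B2 range. On the CPM scale used for the test it was at 679 and 701 in B1a and at 549 and 657 in B2, a log2 fold change of 0.19 ± 0.13 (SE; adjusted p = 0.472, edgeR's quasi-likelihood test). The 95% interval of this fold ran from 0.921 to 1.42. In tests on log2(TPM + 1) the estimate for Lyn changed sign to −0.041, while the median of all genes stood at −0.295 in the same fit.

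Blk (chr14:63372837-63417187, minus strand) encodes a kinase largely restricted to the B lineage. It was at 726 and 851 CPM in B1a and at 464 and 428 CPM in B2, or 788 ± 88.2 against 446 ± 25.3 (mean ± SD, n = 2 each). Both B1a libraries were above both B2 libraries, 1.77-fold in the fit (log2 fold change 0.82 ± 0.13 SE, adjusted p = 0.0212, edgeR's quasi-likelihood test). In TPM it was at 698 and 798 in B1a and at 525 and 476 in B2. In limma's test on log2(TPM + 1) the difference was 0.58 and did not pass (adjusted p = 0.0741). As a result of these levels the ratio of Blk to Lyn in TPM was 1.497 and 1.71 in the B1a libraries and 1.18 and 0.914 in the B2 libraries.

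Lyn and Blk together made up most of the summed mRNA of these 6 kinases in both cell types. They held 90.9% and 93.3% of the summed TPM of the 6 kinases in the B1a libraries and 86.4% and 87.0% in the B2 libraries. Blk alone held 56.7% ± 3.10 (SD, n = 2) in B1a and 44.2% ± 3.75 in B2, while Lyn held 35.4% ± 1.36 and 42.5% ± 4.17. Fyn held 1.18% ± 0.238 in B1a and 4.84% ± 0.0590 in B2. Lck, Fgr and Yes1 each held under 5% of the mean sum in both cell types. The summed TPM was 1282 and 1356 in B1a and 1120 and 1146 in B2. The shares are of these 6 kinases alone and would be smaller with other family members counted. No test was made on them, since exchanging labels among 2 and 2 libraries cannot give a p below 0.333.

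**Figure D3:**
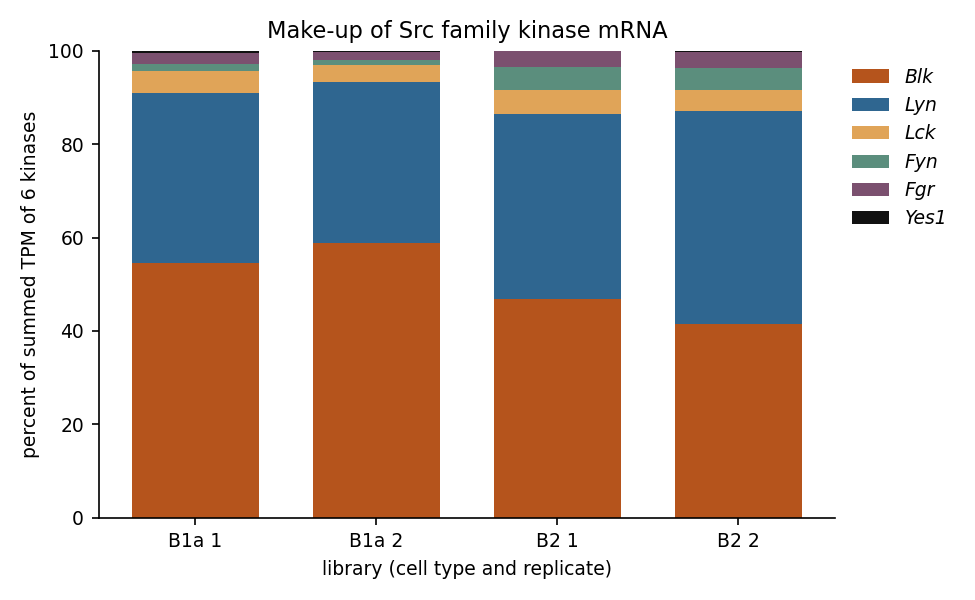
Percent of the summed TPM of the 6 kinases (y axis) held by each kinase in each library (bars). Blk takes 54.5% and 58.9% of the bar in the B1a libraries and 46.9% and 41.6% in the B2 libraries, and the Fyn segment is narrower in B1a (1.35% and 1.01%) than in B2 (4.88% and 4.79%).

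Fyn (chr10:39369743-39565381, plus strand), a kinase with wide expression that also serves the T cell receptor, was the kinase with the largest called difference. It was at 25.8 and 20.6 CPM in B1a and at 69.4 and 70.9 CPM in B2. The B2 libraries were close to each other and both were above the B1a libraries, 3.02-fold in the fit (log2 fold change −1.60 ± 0.26 SE, adjusted p = 0.0255, edgeR's quasi-likelihood test). The call was lost when either B2 library was left out (adjusted p = 0.137 and 0.158), while the log2 fold change stayed between −1.77 and −1.44 over all 4 such fits.

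Lck (chr4:129548344-129573641, minus strand), the main Src family kinase of T cells and one that B1a cells are known to express, was at 62.2 and 50.3 TPM in B1a and at 58.6 and 52.6 TPM in B2. The B2 values lay between the B1a values. The log2 fold change from CPM was 0.27 ± 0.26 (SE; adjusted p = 0.639, edgeR's quasi-likelihood test), with a 95% interval of the fold from 0.776 to 1.88. Lck had a pair of entries in the tables, of which 1 held every expected count. In the quantifier's alternative estimate, the posterior mean, the other entry took 12.8% of the reads of Lck in the second B1a library and 1.60% to 3.27% in the others, which the sum by symbol does not lose. In B2 cells Fyn and Lck were at like levels, with a ratio of Fyn to Lck in TPM of 0.932 and 1.04, against 0.278 and 0.273 in the B1a libraries.

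Fgr (chr4:132974095-133001893, plus strand), a kinase of myeloid cells and B cells, was at 44.2 and 31.8 CPM in B1a and at 45.3 and 48.1 in B2 (log2 fold change −0.30 ± 0.28 SE, adjusted p = 0.639, edgeR's quasi-likelihood test), and the B1a libraries differed from each other by more than the B2 libraries did. Yes1 (chr5:32611171-32687066, plus strand), a widely expressed kinase, had 130 and 94 expected counts in B1a and 24 and 63 in B2, or 11.6 and 8.45 against 2.08 and 3.29 CPM. Its log2 fold change of 1.90 had the widest error of the 9 genes (SE 0.89, adjusted p = 0.304, edgeR's quasi-likelihood test). The B1a libraries were above the B2 libraries. Yes1 passed in 0 of the 11 other fits of all 4 libraries. With 1 library left out in turn, its log2 fold change ran from 1.61 to 2.26.

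Of the regulators, Csk (chr9:57626646-57653631, minus strand), the kinase that closes all Src family members, was abundant in both cell types and leaned towards B2. It was at 409.8 and 385 CPM in B1a and at 525 and 551 CPM in B2, with both B2 libraries above both B1a libraries. The log2 fold change was −0.44 ± 0.11 (SE) and its 95% interval ran from −0.71 to −0.16, but the adjusted p was 0.0928 in edgeR's quasi-likelihood test. Csk passed in 5 of 11 other fits of all 4 libraries, with adjusted p from 0.00685 in DESeq2 to 0.0960, and had the same direction in all of them. With the replicate number as a block its adjusted p was 0.0277. With 1 library left out in turn, the log2 fold change of Csk stayed between −0.48 and −0.39. Whether Csk passed in those fits depended on which group kept a lone library, so those calls are not counted here. The summed TPM of the 6 kinases was 2.98 and 3.44 times that of Csk in the B1a libraries and 1.73 and 1.71 times in the B2 libraries.

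Pag1 (chr3:9687479-9833684, minus strand), the adaptor that can bind Csk at the membrane, was at 63.3 and 46.4 CPM in B1a and at 357 and 363 CPM in B2. The B2 libraries were close to each other and far above both B1a libraries, 6.56-fold in the fit (log2 fold change −2.71 ± 0.19 SE, adjusted p = 0.00221, edgeR's quasi-likelihood test). In TPM it was at 119 in both B2 libraries and at 17.9 and 12.8 in the B1a libraries. The call held in all 11 other fits of the 4 libraries and with each library left out in turn.

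Ptpn22 (chr3:103856575-103912252, plus strand), the phosphatase that binds Csk and acts against the Src family kinases, showed the opposite difference and the largest of the 9. It was at 434 and 377 CPM in B1a and at 50.3 and 58.7 CPM in B2, or 406 ± 40.8 against 54.5 ± 5.94 (mean ± SD, n = 2 each). Both B1a libraries were far above both B2 libraries, 7.44-fold in the fit with a 95% interval from 5.65 to 9.80 (log2 fold change 2.90 ± 0.16 SE, adjusted p = 0.00130, edgeR's quasi-likelihood test). The call held in the same 11 fits and with each library left out. Ptpn22 also had a second entry in the tables, which was at 0 expected counts in all 4 libraries.

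Set against each other in TPM, the regulators changed places. Ptpn22 was at 0.873 and 0.806 of the level of Csk in the B1a libraries and at 0.0788 and 0.0877 of it in the B2 libraries. Pag1 was at 0.0416 and 0.0324 of the level of Csk in B1a and at 0.183 and 0.178 in B2. Ptpn22 exceeded Pag1 21.0-fold and 24.9-fold in the B1a libraries, and stood at 0.430 and 0.493 of Pag1 in the B2 libraries. The libraries of the 2 cell types did not overlap in any of these ratios, which were not tested. The ratios restate the levels given above, with Ptpn22 and Pag1 already called, so this adds no further support. In TPM, 59.3% of the single genes tested did not overlap either.

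The study as a whole was concerned with CpG modification, so the sequence before the start sites was read for the called genes that RefSeq's promoter table holds, Ptpn22 and Fyn, and CpG dinucleotides are shown in capitals. The Ptpn22 stretch has 250 bases and lies after the most upstream annotated start of that gene, and the Fyn stretch is the first 194 bases of its window, ending before the first annotated exon (both GRCm38, plus strand).
Ptpn22 (chr3:103859545-103859794): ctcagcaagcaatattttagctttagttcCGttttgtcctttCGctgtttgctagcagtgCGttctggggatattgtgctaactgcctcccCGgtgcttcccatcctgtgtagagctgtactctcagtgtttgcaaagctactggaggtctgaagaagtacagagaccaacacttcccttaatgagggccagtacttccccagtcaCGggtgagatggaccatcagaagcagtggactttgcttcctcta
Fyn (chr10:39369549-39369742): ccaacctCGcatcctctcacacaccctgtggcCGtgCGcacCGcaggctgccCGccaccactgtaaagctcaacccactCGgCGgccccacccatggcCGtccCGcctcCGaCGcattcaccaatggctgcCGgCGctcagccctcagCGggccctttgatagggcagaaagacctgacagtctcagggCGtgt
The letters CG, which read the same on both strands, occurred 5 times in the 250 bases of Ptpn22, and 55.6% of 32851 promoter windows held at least as many. The windows compared leave out those of a whole chromosome and any shorter than 250 bases. The window of a second start of Ptpn22 (chr3:103860027-103860276) held 2, which 81.2% of windows matched or exceeded. They occurred 21 times in the whole 250 bases of Fyn, which 16.3% of windows matched or exceeded. Yes1 had 37, Csk 16 and 7 at its 2 starts, Fgr 9, and Lck 3 and 1, beside a median of 6 over the windows compared. Annotated exons, of any gene and strand, took up 250 bases of the Yes1 window and 36 of the Fyn window. They took up 19 bases of the Lck window with 3. These are counts of letters, and no methylation value was used here.

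The genes around the 9 were taken from 7 lists, of which 68 genes were used and 66 were tested. In these lists 14 genes passed the test, 8 of them higher in B1a and 6 higher in B2, which was 21.2% of those tested against 5.74% of all genes. The lists too were chosen with earlier results of these data known, so this comparison is not a test of them. The median log2 fold change was −0.05 over the 66 genes and −0.03 over all genes.

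Src itself, which gave the family its name, was at 5.46 and 0.449 CPM in B1a and at 0.780 and 1.04 in B2, with the B2 values between the B1a values.

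Of 10 phosphatases known to act on Src family kinases, 3 were higher in B1a and 1 was higher in B2. Ptprj (CD148), a receptor phosphatase that can open Src family kinases as CD45 does, was at 1366 and 1233 CPM in B1a and at 456 and 449 in B2 (2.87-fold, adjusted p = 0.00226, edgeR's quasi-likelihood test). Ptprc, which encodes CD45, was at 1482 and 1213 CPM in B1a and at 1689 and 1858 in B2 and did not pass (adjusted p = 0.162). Ptpn1, a phosphatase of the endoplasmic reticulum, was 1.76-fold higher in B1a, and Ptpn18, a phosphatase of the same family as Ptpn22 that also binds Csk, was 2.11-fold higher in B1a. Ptpn6 (SHP-1), the phosphatase that inhibitory receptors recruit, was at 451 and 356 CPM in B1a and at 766 and 710 in B2, 1.83-fold higher in B2 (adjusted p = 0.0283).

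Of 12 Csk-binding and membrane adaptors, 1 passed, the adaptor Lax1, which was 1.82-fold higher in B2 (adjusted p = 0.0362, edgeR's quasi-likelihood test). The log2 fold changes of this list ran from −5.18 to 2.16 with a median of −0.19, beside −2.71 for Pag1. The gene at −5.18 did not pass, and DESeq2 called 3 genes of this list. None of 6 ubiquitin ligases of Src family kinases and none of 7 tested myristoyl and palmitoyl transferases passed in edgeR, with 1 gene of each list at an unadjusted p under 0.05. DESeq2 called none of the ligases and 1 of the transferases.

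Of the 15 activating substrates and partners, 2 were higher in each cell type. Syk, the kinase that docks on the phosphorylated receptor, was at 2246 and 2272 CPM in B1a and at 1278 and 1336 in B2 (1.73-fold, adjusted p = 0.00870, edgeR's quasi-likelihood test). Cd79a, which carries the signalling motif that the Src family kinases phosphorylate, was 1.45-fold higher in B1a, and its partner Cd79b was 1.29-fold higher without passing (adjusted p = 0.125). The co-receptor partner Cr2 was 10.6-fold higher in B2, which the sort on CD21 also used. Pik3ap1 (BCAP), which links the receptor to PI3 kinase, was 2.61-fold higher in B2.

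Of 12 inhibitory receptors and effectors, 3 genes were higher in B1a and 2 higher in B2. The receptors among them, the other class of Lyn substrates, differed in both directions. Cd22 was at 1087 and 779 CPM in B1a and at 1804 and 1662 in B2, 1.86-fold higher in B2, whereas Siglecg, a related sialic acid receptor, was 1.86-fold higher in B1a (adjusted p = 0.0417 and 0.0300, edgeR's quasi-likelihood test). Cd72 was 6.42-fold higher in B2 and Pirb was higher in B1a by a log2 fold change of 1.59. The phosphatase Inppl1 (SHIP2) was 2.88-fold higher in B1a.

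**Figure D4:**
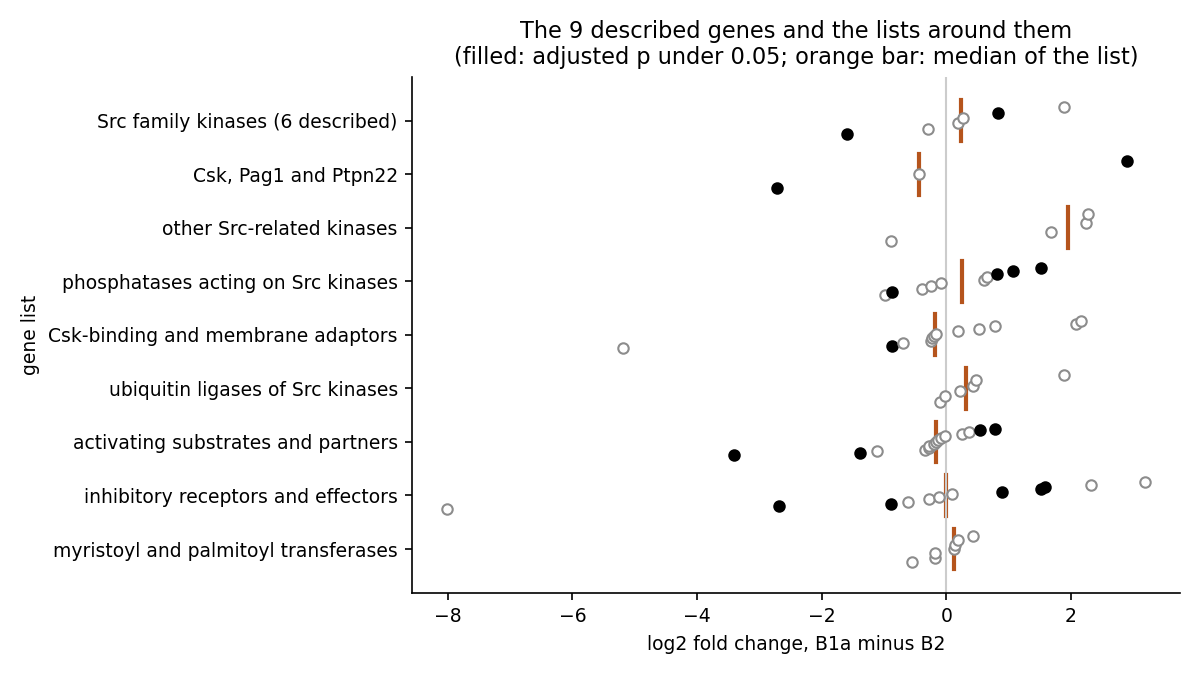
Log2 fold change (x axis, B1a minus B2) of the 9 genes and of the 66 tested genes used from the 7 lists around them (y axis), filled where the adjusted p was under 0.05, with an orange bar at each list's median. Called genes stand on both sides of 0 among phosphatases, substrates and inhibitory receptors, and none among the ligases and the acyl transferases.

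Since Lck and Fyn are also T cell genes, and Fgr, Lyn and Ptpn22 are also expressed by other leukocytes, markers of such cells were read in the same libraries. In bulk samples, fewer cells of a type and less RNA in each cell cannot be told apart. Of 16 T cell markers, 10 and 11 were above 3 counts in the B1a libraries and 16 in each B2 library. Their summed level was 556 to 681 CPM in B1a and 224 to 289 CPM in B2, most of it from Cd2, which mouse B cells express as well, and without Cd2 (left out after its values were seen) it was 64.4 to 123 in B1a and 86.7 to 106 in B2. Cd4, Cd28, Thy1 and Il7r were at 0 in both B1a libraries and Cd3e was at 0.898 to 3.47 CPM in all 4 libraries. Other markers of the list were present in B1a, with Cd3d at 14.6 and 18.2 CPM against 15.7 and 15.4 in B2, Cd8a at 23.8 and 4.31 against 14.99 and 16.1, Cd8b1 at 19.2 and 11.9 against 16.1 and 22.9, Cd247 at 18.4 and 1.80 against 3.21 and 4.70, and Tcf7 at 17.3 and 17.9 against 6.15 and 10.2. Zap70 was at 16.4 and 4.04 CPM in B1a and 1.99 and 2.30 in B2, Cd3g at 10.4 and 0.180 against 0.867 and 2.04, and Lat at 0 and 2.79 against 2.69 and 1.99. Of the 16 markers, 1 passed the test (Cd2, higher in B1a) and 6 had a log2 fold change above 0. The part of T cell RNA in the levels of Lck and Fyn was not tested.

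Of 13 macrophage markers, 9 and 10 were above 3 counts in the B1a libraries and 11 and 8 in the B2 libraries, and their summed level was 225 to 262 CPM in B1a and 68.4 to 77.3 in B2. In B1a most of it was Lyz2, at 127 and 135 CPM in B1a and 16.8 and 27.2 in B2 (adjusted p = 0.00764, edgeR's quasi-likelihood test), while Csf1r was at 16.8 and 21.8 against 21.1 and 18.3, Adgre1 at 27.7 and 39.0 against 8.23 and 11.9, and C1qa at 24.4 and 17.4 against 4.59 and 6.06. C1qb was at 9.14 and 14.8 CPM against 3.29 and 2.98 and C1qc at 14.9 and 13.2 against 4.16 and 4.54, whereas Fcgr1 and Vsig4 were at 0 in both B1a libraries. The mast cell list of 5 genes summed to 11.8 to 24.1 CPM in B1a and 0.940 to 1.47 in B2, with Fcer1a at 0 in all 4 libraries. The neutrophil list, with 7 of 8 genes found in the tables, summed to 226 to 376 CPM in B1a and 310 to 335 in B2, most of it from Cxcr2 (338 and 206 CPM in B1a, 310.4 and 279 in B2) and Csf3r (38.2 and 20.5, against 21.4 and 20.01), while S100a8, S100a9, Retnlg, Camp and Ltf were at 0 in both B1a libraries. The natural killer cell list summed to 1.44 to 3.14 CPM in B1a and 8.23 to 8.72 in B2, and the dendritic cell list to 18.6 to 33.0 and 27.8 to 43.2. The summed levels of the macrophage and mast cell lists were higher in B1a without overlap, as were the levels of Blk and Ptpn22, although Lyz2 alone of these markers passed the test, and their part in the differences of Blk and Ptpn22 was not tested.

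Some of the 9 genes share sequence with other annotated genes. Exons of Yes1 overlap the gene model Gm10461 on the other strand over 635 bases, and exons of Lyn overlap the antisense RNA Gm26857 over 248 bases. A transcript of Lyn matched the gene model Gm11787 over 1050 bases at 100% identity, and a transcript of Yes1 matched Slc12a8, which has its own entry in the tables, over 124 bases at 95.2%. None of the 3 Gm models had an entry in the tables, and how strand was used in counting was not given in the sources used here, so their reads could not be separated from those of Lyn and Yes1. The other 7 genes had no other gene with a match of at least 75 bases at 95% identity.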

How the data were processed

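RNA-seq of 4 wild-type libraries was analysed, 2 of peritoneal B1a and 2 of splenic follicular B2 cells. Per the labels, libraries were made from total RNA with ribosomal RNA depletion, whereas the paper elsewhere speaks of enrichment of polyadenylated RNA, and the authors quantified reads on mm10 with RefSeq genes using RSEM (1.2.29 per the labels; the methods of the study name another version). The deposited tables give expected counts, posterior mean counts with their standard deviation (a signal that was read for entries of 1 symbol and not tested), and TPM per gene entry. Expected counts of 21970 entries were summed over 20599 symbols and rounded. RSEM shares out reads that match several genes, so near-identical genes are uncertain.

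After filterByExpr and TMM scaling, edgeR 4.0.16 was run on all 4 libraries (quasi-likelihood test, Benjamini-Hochberg over 12078 genes, threshold 0.05). The standard error is the log2 fold change over the root of F. EBSeq, named in the methods, was not run. Alternatives were DESeq2 1.42.0, limma 3.58.1 (voom, and log2(TPM + 1) or log2(TPM + 0.1) for a mean TPM of at least 1), other filters and factors, a replicate block and leaving out each library. The tests were first run on simulated data. Promoter sequences came from RefSeq's table on GRCm38, in which 6 of the 9 genes matched, and positions and coding sequences from GENCODE on GRCm38.

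The 9 genes and the lists were chosen with earlier results of these data known, and 2 genes of the lists are not reported here. The text names all 9, list genes with an adjusted p under 0.05, and Src, Ptprc, Cd79b, Cd5, the sort markers and a few markers of other cells. Other markers of B cells, T cells, macrophages and neutrophils named in the text were added after their values were seen. Counts of 3 or fewer were treated as not detected, which is 0.161 to 0.272 CPM in these libraries and covers counting error only.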

Additional observations from a re-analysis of the deposited data

How the results depend on the processing

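The number of genes called over the whole transcriptome, 693, depended on the method: it was 1550 with DESeq2, 1415 with limma-voom and a weight for each cell type, 1141 with no filter beyond 1 count, 359 on log2(TPM + 0.1), 202 on log2(TPM + 1) without a filter, and 539 to 6143 when 1 library was left out, the upper end without the second B1a library (3953 without the first). A lone library was then assumed to vary like the other group, so these counts are not signs of more or less change. Tests on TPM placed the median of all genes at −0.26 to −0.32. In the main fit on counts it was −0.03, and over all count fits of the 4 libraries −0.11 to 0.01. The share of calls higher in B1a, 512 of 693, was 196 of 359 on log2(TPM + 0.1) and 266 of 499 on log2(TPM + 1).

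Of the 9 genes, 4 were called, 3 to 6 when 1 library was left out, and 2 (Pag1 and Ptpn22) both on log2(TPM + 0.1) and on log2(TPM + 1) without a filter. Pag1 and Ptpn22 passed in every fit run. Blk was not called in the 3 TPM fits (adjusted p = 0.0741, 0.0861 and 0.0930 in limma) nor with a minimum log2 fold change of 1. Fyn was not called on log2(TPM + 0.1) or without a TPM filter (adjusted p = 0.0501 and 0.0609 in limma), and Lyn changed sign to −0.041 in the 3 TPM fits, where it did not pass. The cause was not tested.

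With the replicate number as a block, 1481 genes were called, Csk among them. Deviations of libraries with the same number correlated at −0.03. With 2 libraries in each group this cannot tell whether the numbers pair animals or batches, so the block is only another fit.

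Shares of summed kinase TPM moved by more than the replicate SD in 11 of 12 cases when CPM replaced TPM, and a planned sum over more kinases is not used here. In CPM in place of TPM, Lyn held 43.1% (B1a) and 49.7% (B2), Blk 49.2% and 36.9%, Fyn 1.46% and 5.80%, Lck 3.19% and 3.49%, Yes1 0.632% and 0.221%, and Fgr 3.86% in B2. Yes1 rested on 24 to 130 counts in a library and had the widest error of the 9 genes.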
